A study of Homo sapiens with 6 samples.

Results

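The HOXC genes are 9 homeobox genes that lie side by side on chromosome 12. They were taken from the deposited expression table by symbol, as every row named HOXC followed by a number, which gave 9 of the 20347 genes in the table. All 6 RNA-seq libraries came from PaTu8988t, an established human pancreatic ductal adenocarcinoma (PDAC) cell line. The 3 Control libraries came from cells that received the Lenti-CRISPR V2 vector with an unspecific guide, and the 3 *SAMD1* KO libraries came from cells in which CRISPR/Cas9 was directed at *SAMD1*. Each *SAMD1* KO library is a single, independently selected clone, so clone and knockout cannot be told apart within a library. The sources do not say that the Control replicates came from separate cultures or clones, and p-values therefore measure the spread between these libraries, which may be technical for the Control cells. SAMD1 is a chromatin protein that binds unmethylated CpG islands and acts as a repressor, and the comparison asks how its loss changed transcript levels.

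HOX genes encode homeodomain transcription factors that give embryonic regions their identity along the head to tail axis. They sit in 4 clusters, HOXA to HOXD, in which the order of the genes on the chromosome follows the order of their use along the body axis, and genes at the same place in different clusters are paralogues that arose from duplication of an ancestral cluster. In differentiated cells the clusters are kept in active and silent stretches by Trithorax and Polycomb proteins, and adult epithelia and carcinomas often keep a HOX pattern that reflects the position of the tissue of origin.

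The cluster spans chr12:53938831-54056030 (GRCh38, GENCODE 44), which is 117.2 kb, and all 9 genes are on the plus strand. In order of the start of the representative (MANE) transcript they are *HOXC13* (53938831-53946544), *HOXC12* (53954903-53958956), *HOXC11* (53973126-53977643), *HOXC10* (53985065-53990279), *HOXC9* (53994895-54003337), *HOXC8* (54008985-54012769), *HOXC6* (53990624-54030823), *HOXC5* (54033050-54035361) and *HOXC4* (54016931-54056030). The representative transcript of each gene has 2 exons. Exons of *HOXC6* share 557 bp, or 16.1% of its exon bases, with *HOXC9* and *HOXC4*, and exons of *HOXC4* share 484 bp, or 17.5%, with *HOXC6*. Antisense exons overlap those of *HOXC13*, *HOXC10*, *HOXC9* and *HOXC6* by 172, 63, 163 and 73 bp. Unnamed same-strand genes of the annotation overlap exons of *HOXC10*, *HOXC6*, *HOXC5* and *HOXC4*. How reads in shared exons were assigned, and whether strand was used in counting, is not given in the sources used here, so parts of the counts of these 6 genes are uncertain. The noncoding genes of the locus (HOTAIR, the HOXC antisense RNAs, MIR196A2 and MIR615) were not analysed here.

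The promoter below is shown because *HOXC4* and *HOXC5*, 2 of the 3 HOXC genes that rose, share it in the RefSeq tables, which give both the gene start 54016888. GENCODE 44, used here for positions and lengths, starts the representative transcripts elsewhere, at 54053835 for *HOXC4* and at 54033050 for *HOXC5*, and its *HOXC4* gene at 54016931. It is the 250 bases before that start, chr12:54016638-54016887 (GRCh38.p14, plus strand), with GCGC, the motif enriched at SAMD1 binding sites in the study, in capitals. The promoters of *HOXC6*, *HOXC8*, *HOXC9*, *HOXC10*, *HOXC11*, *HOXC12* and *HOXC13* were not matched, so 2 of the 9 members have one here.
HOXC4 and HOXC5 shared promoter: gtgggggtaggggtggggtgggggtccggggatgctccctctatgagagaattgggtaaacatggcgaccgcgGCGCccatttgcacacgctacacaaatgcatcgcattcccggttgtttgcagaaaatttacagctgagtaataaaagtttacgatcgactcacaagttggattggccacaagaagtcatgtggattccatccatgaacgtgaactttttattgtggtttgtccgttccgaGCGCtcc
It holds 2 GCGC matches, which read the same on both strands and do not overlap each other. Of the 34943 promoter windows of the same length in the table, 53.3% hold GCGC and 39.0% hold it at least 2 times, so the match is a common one. Its GC content is 50.8%, against a median of 58.0% over all windows, and it has 14 CpG dinucleotides against a median of 11. SAMD1 binding at this window was not analysed here.

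A second set of sequences is shown because *HOXC8*, which rose in the clones, carries target matches of a microRNA encoded within its own cluster. MicroRNAs of the miR-196 family lie in HOX clusters and are known to target *HOXC8* transcripts. The gene of hsa-miR-196a-5p in this cluster places the mature sequence at chr12:53991762-53991783 (GRCh38.p14, plus strand), between *HOXC10* and *HOXC9*, and its seed (bases 2 to 8) is in capitals.
hsa-miR-196a-5p: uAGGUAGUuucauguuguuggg
The reverse complement of the seed, ACTACCT, was looked for on the sense strand in the part of each representative transcript that follows the coding sequence. *HOXC8* has 3 matches, which do not overlap, and the other 8 HOXC genes have 0. Of 19061 human representative transcripts, 6.98% hold at least 1. The matches in *HOXC8* are in its last exon at chr12:54011494-54011516, chr12:54012230-54012252 and chr12:54012370-54012392 (GRCh38, plus strand), with the match in capitals.
HOXC8 match 1: acactcacaactctaACTACCTg
HOXC8 match 2: ataaatctttaacatACTACCTa
HOXC8 match 3: ccagcgtattttatcACTACCTa
The microRNA itself was not measured in these libraries, and the matches are a description of the transcript. Their part in the *HOXC8* values was not tested.

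The libraries held 35589477 to 45172216 reads, recovered from the normalized counts, and the 10 most abundant genes took 3.81 to 4.07% of each. *SAMD1* had 2231, 2382 and 2299 normalized counts in the Control libraries and 874.1, 1082 and 824.8 in the *SAMD1* KO clones, so every library went with its label, although transcript remained in each clone. The KO clones differed from each other more than the Control replicates did. The median SD of a tested gene on the log2 scale was 0.15 among clones and 0.059 among Control replicates. Mitochondrial genes took 2.56 to 2.81% of the reads in the Control libraries and 2.26 to 2.37% in the clones, and their part in the results was not tested. Of 12 pancreatic carcinoma epithelial markers, 7 passed the filter, *KRT8* and *KRT18* were abundant, *KRT19*, *CEACAM6*, *TFF1* and *AGR2* had 0 reads in all libraries, and *KRT7*, *KRT18* and *GATA6* rose in the clones. Of 8 leukocyte, 8 fibroblast and 5 endothelial markers, 1, 3 and 3 passed the filter, and *CD3E*, *CD3D* and *MS4A1* as well as *DCN*, *LUM* and *FAP* had 0 reads. Limma called 0 of these 7, beside 5.77% of all tested genes called higher and 2.08% lower. Of the 7, 1 was higher and 4 were lower at an unadjusted limma p below 0.05. EdgeR called 1 fibroblast marker higher and DESeq2 called 1 fibroblast marker higher and 1 endothelial marker lower. The summed normalized counts were 571.4 to 582.2 in Control and 476.7 to 811.2 in KO libraries for fibroblast markers, 358.5 to 382.6 and 252.3 to 333.7 for leukocyte markers, and 80.1 to 89.3 and 36.6 to 85.4 for endothelial markers. The part of these markers in the HOXC results was not tested.

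In the *SAMD1* KO clones *HOXC8*, *HOXC5* and *HOXC4* rose, to 2.37, 2.22 and 2.92 times their Control means. *HOXC9* was 1.40 times its Control mean, under the fold limit but with a low p. *HOXC6* was 1.40 times its Control mean, without passing either limit in limma. *HOXC10*, at 1.33 times its Control mean, *HOXC11* and *HOXC13* overlapped between the groups, and *HOXC12* had no reads. These are bulk libraries, in which more cells with a transcript and more transcript per cell cannot be told apart.

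Limma was fitted to log2(normalized count + 1) for all 12773 genes that averaged 10 or more normalized counts over the libraries. The scale understates the change of genes with low counts. A gene was called when its log2 fold change was beyond 0.5 and its unadjusted p below 0.01, and p-values were adjusted by Benjamini-Hochberg across every gene in the fit. Of the 9 HOXC genes, 8 passed the filter. Limma called 3 of these 8 higher, where 5.77% of all tested genes were called higher, and 0 lower, where 2.08% were called lower. At an unadjusted limma p below 0.05, 5 were higher and 0 lower. The share of all tested genes at that limit is not given, so counts at it, here and elsewhere, cannot be set against a background. EdgeR and DESeq2 on the recovered reads each called the same 3 higher and 0 lower. The shares of all tested genes called higher and lower were 6.1% and 1.93% with edgeR and 6.5% and 2.07% with DESeq2. With a limma adjusted p below 0.05 at any fold change, 4 of the 8 were higher (*HOXC9*, *HOXC8*, *HOXC5* and *HOXC4*), against 8.32% of tested genes, and 0 were lower, against 4.7%. In 5 of the 8 every clone was above every Control library, against 19.2% of tested genes, and in 0 of the 8 every clone was below, against 18.6%. The median log2 fold change was 0.47 over the 8 members and -0.0059 over all tested genes. The members are neighbours, and *HOXC6*, *HOXC9* and *HOXC4* share exons, so they were not counted as independent of each other.

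**Figure D1:**
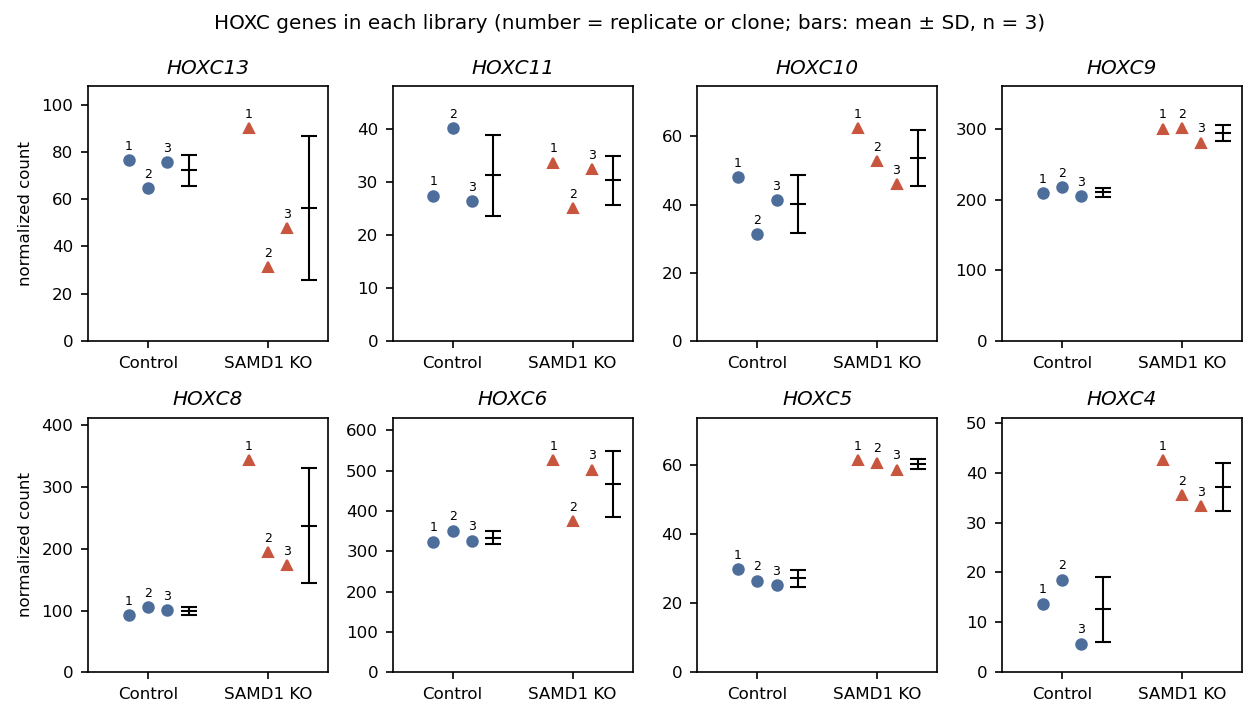
Normalized counts (vertical axis, starting at 0) of the 8 tested HOXC genes in each library, with Control replicates as blue circles, *SAMD1* KO clones as red triangles, and black bars for the mean ± SD (n = 3). All clones lie above all Control libraries for *HOXC9*, *HOXC8*, *HOXC6*, *HOXC5* and *HOXC4*, while *HOXC13*, *HOXC11* and *HOXC10* overlap.

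*HOXC4* is the most anterior gene of the cluster and is known in B cells as an activator of the antibody-diversifying enzyme AID. It had 13.7, 18.6 and 5.73 normalized counts in the Control libraries and 42.5, 35.4 and 33.3 in the clones. All clones were higher than all Control libraries, but the counts rest on few reads, 12, 19 and 5 in Control and 43, 41 and 37 in the clones. The mean went from 12.7 ± 6.5 to 37.1 ± 4.8 (SD, n = 3), a limma log2 fold change of 1.60 (SE 0.41, adjusted p = 0.0454). The call was lost without Control replicate 1 and without each clone in turn, with an unadjusted limma p of 0.0118 to 0.0187 and a log2 fold change of 1.50 to 1.72. Without Control replicate 3, which had the fewest reads, the log2 fold change was 1.16.

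*HOXC5*, the gene next to *HOXC4*, had 29.7, 26.4 and 25.2 normalized counts in Control libraries and 61.3, 60.5 and 58.5 in the clones. All clones were far above all Control libraries. The SD was 0.20 among clones and 0.43 among Control replicates of that expected from counting reads, so the closeness of the values is tighter than these read counts can resolve. The mean went from 27.1 ± 2.4 to 60.1 ± 1.5 (SD, n = 3), a limma log2 fold change of 1.12 (SE 0.18, adjusted p = 0.00936). With 1 library left out the log2 fold change stayed between 1.07 and 1.19, and the gene was called each time.

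*HOXC6* is an anterior trunk gene that is often raised in carcinomas of the breast and prostate. It had 323.7, 351.3 and 326.5 normalized counts in Control libraries and 526.1, 374.1 and 501.9 in the clones. Clone 2 was only just above the highest Control library, and the other two clones were well above it. The mean went from 333.8 ± 15.2 to 467.3 ± 81.7 (SD, n = 3), with a log2 fold change of 0.47 (SE 0.14) that limma did not call (adjusted p = 0.0716). It passed the p limit but not the fold limit with DESeq2 (log2 fold change 0.49, unadjusted p = 0.00343, adjusted p = 0.0232). The same held for limma after 75th percentile scaling (0.49, unadjusted p = 0.00841), while edgeR gave an unadjusted p of 0.0101. Without clone 2 the log2 fold change was 0.62 (limma adjusted p = 0.00919) and passed the call limits.

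*HOXC8*, a gene of the brachial and thoracic region, had 92.7, 105.7 and 100.8 normalized counts in Control libraries and 343.1, 194.4 and 172.7 in the clones. All clones were above all Control libraries, with clone 1 far above the other two. The clones stood at 3.44, 1.95 and 1.73 times the Control mean. The mean went from 99.7 ± 6.6 to 236.7 ± 92.8 (SD, n = 3), a limma log2 fold change of 1.17 (SE 0.25, adjusted p = 0.0262). The SD among clones was 6.24 times that expected from counting reads alone. Without clone 1 the log2 fold change was 0.87, and the gene was called with any 1 library left out.

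*HOXC9*, which sets the identity of thoracic motor neurons in the embryo, had 209.3, 217.2 and 205.0 normalized counts in Control libraries and 300.6, 300.7 and 280.6 in the clones. Both groups were tight and did not overlap. The mean went from 210.5 ± 6.2 to 294.0 ± 11.5 (SD, n = 3), a log2 fold change of 0.48 (SE 0.098, limma adjusted p = 0.0212), just under the limit of 0.5. It passed the limits with 0.50 without Control replicate 2 and with 0.51 without clone 3.

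*HOXC10*, a posterior gene that takes part in lumbar motor neuron identity, had 48.0, 31.3 and 41.2 normalized counts in Control libraries and 62.3, 52.7 and 45.9 in the clones. Clone 3 was below Control replicate 1, so the groups overlapped. The log2 fold change was 0.42 (SE 0.23, limma adjusted p = 0.274), and it was 0.25 to 0.55 with 1 library left out.

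*HOXC11* had 27.5, 40.1 and 26.3 normalized counts in Control libraries and 33.6, 25.1 and 32.4 in the clones. The ranges covered each other, and the log2 fold change was -0.029 (SE 0.26, limma adjusted p = 0.954). Its sign turned to 0.16 without Control replicate 2 and to 0.099 without clone 2.

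*HOXC12* had 0 reads in all 6 libraries. A count of 0 allows up to 3 reads a library, or 2.59 to 3.44 normalized counts, for counting error only.

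*HOXC13*, which drives hair and nail keratin genes, had 76.6, 64.6 and 75.6 normalized counts in Control libraries and 89.98, 31.1 and 47.7 in the clones. Clone 1 was above all Control libraries, and clones 2 and 3 were below all of them. The mean went from 72.3 ± 6.7 to 56.3 ± 30.4 (SD, n = 3), with a log2 fold change of -0.49 (SE 0.36, limma adjusted p = 0.408). The SD among clones was 4.17 times that expected from counting reads. Without clone 1 the log2 fold change was -0.89 (unadjusted p = 0.00839 and adjusted p = 0.0449 in limma) and the gene was called lower, so this result turns on a single clone.

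Clone 1 had the highest value of the clones in 7 of the 8 tested members and clone 2 in 1, *HOXC9*. The lowest value was in clone 3 in 5 members and in clone 2 in 3. The median difference from the Control mean on the log2 scale was 0.65, 0.46 and 0.50 in clones 1, 2 and 3. Clone 1 was above all Control libraries in 7 members, clone 2 in 6 and clone 3 in 5. The median SD on the log2 scale over the members was 0.22 among clones and 0.13 among Control replicates, beside 0.15 and 0.059 over all tested genes.

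**Figure D2:**
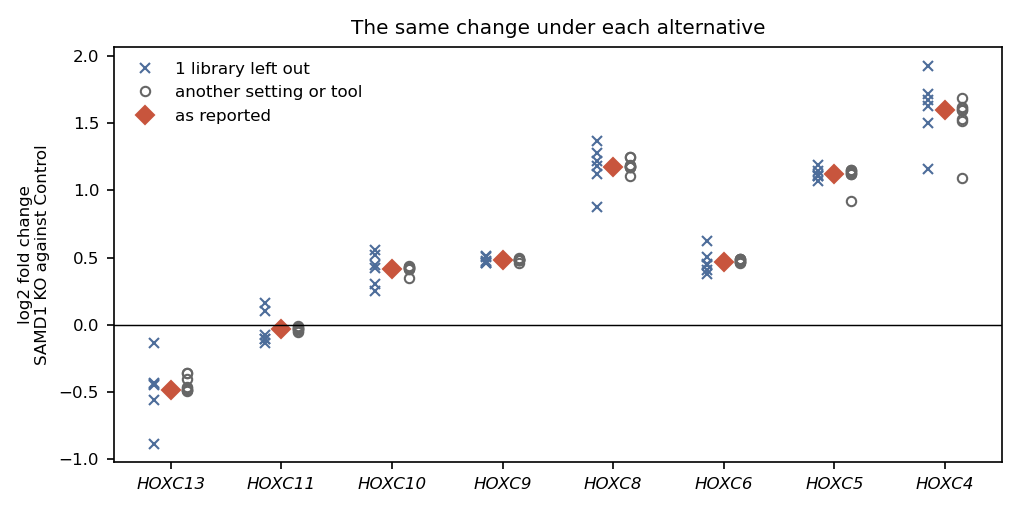
Log2 fold change between *SAMD1* KO and Control (vertical axis) of each tested HOXC gene as reported (red diamonds), with 1 library left out (blue crosses) and under another setting or tool (grey circles). *HOXC4*, *HOXC5*, *HOXC6*, *HOXC8*, *HOXC9* and *HOXC10* stay above 0 throughout, *HOXC4* and *HOXC13* range most with the library left out, and *HOXC11* lies on both sides of 0.

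The values are given here by position along the cluster, in a grouping that was made after they were seen and that carries no test. The 5 genes from *HOXC9* to *HOXC4* had log2 fold changes of 0.47 to 1.60, and all 5 were separated between the groups. The 3 tested genes from *HOXC13* to *HOXC10* had -0.49 to 0.42, and 0 of them were separated. There was no step at the border of the grouping, since *HOXC10* had 0.42 and *HOXC9* 0.48. Outside the cluster, the 5 nearest tested genes on each side changed little.

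On the *HOXC13* side these were *MAP3K12* (log2 fold change 0.17), the Dicer partner *TARBP2* (-0.13), the transcription factor *ATF7* (0.010), the ATP synthase subunit gene *ATP5MC2* (0.089) and *CALCOCO1* (0.29). On the *HOXC4* side they were the DNA glycosylase gene *SMUG1* (0.12), the heterochromatin protein gene *CBX5* (-0.11), the splicing factor gene *HNRNPA1* (-0.15), *COPZ1* (-0.062) and *ZNF385A* (-0.011). Limma called 0 of these 10, beside 5.77% of all tested genes called higher and 2.08% lower. EdgeR and DESeq2 also called 0, and 1 of the 10 was higher and 0 lower at an unadjusted limma p below 0.05. That gene was *CALCOCO1*, 211 kb from the cluster, with a limma adjusted p of 0.0177. In 7 of the 10 the groups overlapped. Over all tested genes every clone was above every Control library in 19.2% and below in 18.6%. *SMUG1*, the nearest, starts 65.2 kb beyond the cluster. Over the 40 tested genes around the cluster the median shift of a library was between -0.020 and 0.025 on the log2 scale, and removing it changed no HOXC call.

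**Figure D3:**
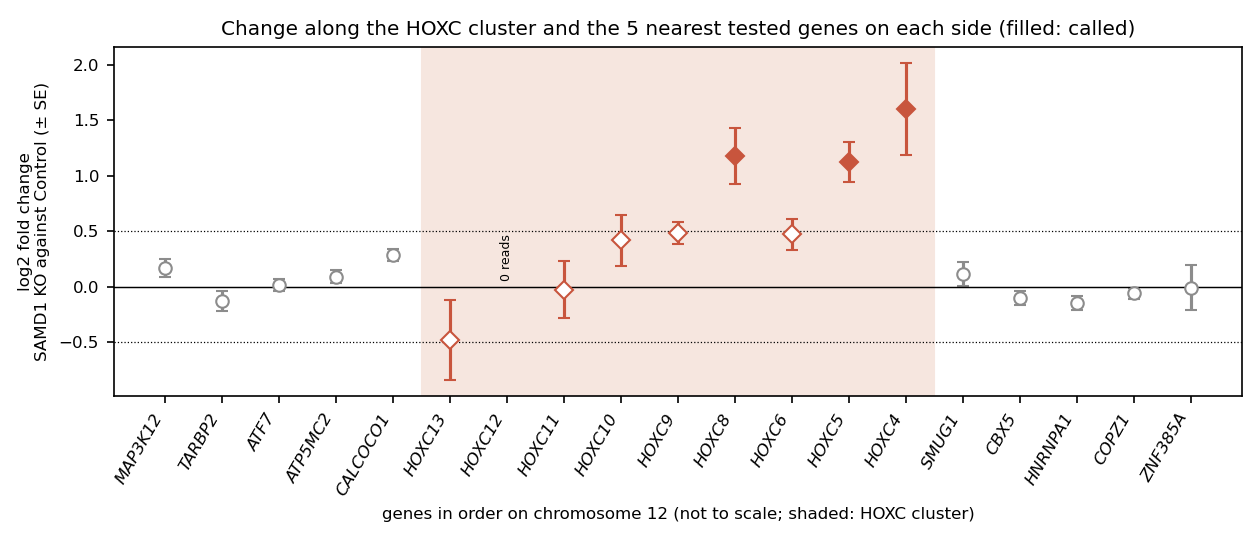
Log2 fold change between *SAMD1* KO and Control (± SE, n = 3 libraries a group) of the HOXC genes (red diamonds, shaded) and the 5 nearest tested genes on each side (grey circles), in chromosomal order and not to scale, with dotted lines at the fold limits and filled symbols for called genes. The 3 filled diamonds are *HOXC8*, *HOXC5* and *HOXC4*, and the flanking genes lie between -0.15 and 0.29.

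Levels of different genes were compared in RPKM, that is recovered reads per kilobase of annotated exon scaled to the library total. In Control cells *HOXC9* had the highest level, 3.10 ± 0.096 (SD, n = 3), followed by *HOXC6* with 2.37, *HOXC8* with 1.01 and *HOXC13* with 0.752. *HOXC10* (0.416) and *HOXC5* (0.413) followed with overlapping ranges, and *HOXC11* (0.235) and *HOXC4* (0.112) were lowest of the 8. No other neighbours in this order overlapped.

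In the clones *HOXC9* (4.42) and *HOXC6* (3.38) kept the leading places, and *HOXC8* reached 2.44, with a range that overlapped that of *HOXC6*. *HOXC5* reached 0.934 and stood before *HOXC13* (0.594) and *HOXC10* (0.566), which overlapped with each other, as *HOXC5* did with *HOXC13*. *HOXC4* (0.335) passed *HOXC11* (0.232). *HOXC5* thus moved from place 6 to 4 and *HOXC4* from 8 to 7. The order of the leading pair depends on the length used: with the length of the representative transcript, *HOXC6* led with 4.96 in Control cells and 7.07 in the clones, before *HOXC9* with 3.50 and 4.996.

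The summed level of the 9 HOXC genes per length went from 8.41 ± 0.22 in Control cells to 12.9 ± 1.67 in the clones. Over the same libraries the summed HOXB level went from 69.9 to 156.9, and the HOXA level from 4.88 to 5.62. HOXC genes therefore made up 10.1 ± 0.11% of the summed HOX level in Control cells and 7.52 ± 1.89% in the clones (SD, n = 3), with a range of 5.83 to 9.56%. These sums are given as a description.

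**Figure D4:**
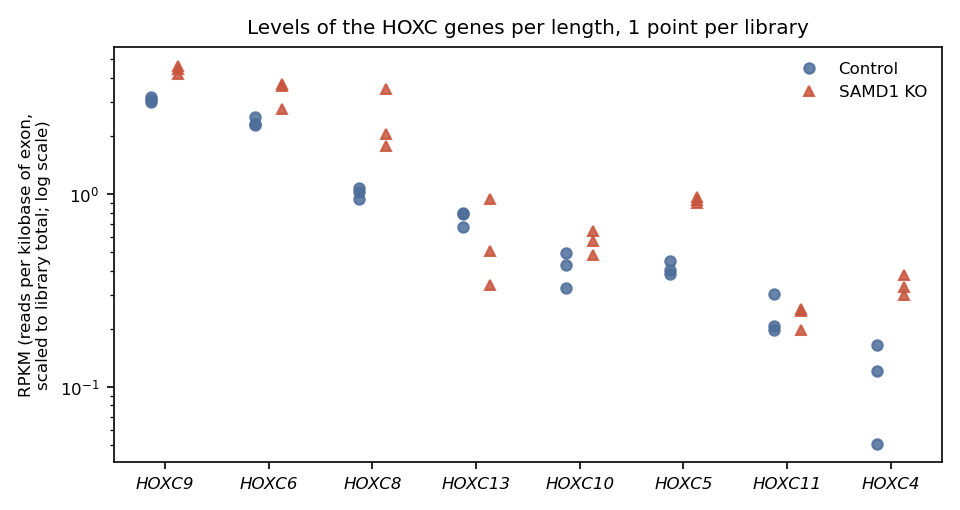
Level of the 8 tested HOXC genes in RPKM, reads per kilobase of exon scaled to the library total (vertical log axis), 1 point per library, with Control libraries as blue circles and *SAMD1* KO clones as red triangles. *HOXC9* and *HOXC6* are highest in both groups, and *HOXC4* is lowest in Control cells.

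Paralogues in the other clusters were compared with the HOXC genes library by library. HOXC had 3 of 8 tested genes called higher, with a median log2 fold change of 0.47. HOXB had 7 of 8 called higher with a median of 1.36, and HOXA 1 of 8 with a median of -0.034. None of the 9 HOXD genes passed the filter. Of the 20 listed paralogues of the HOXC genes, 9 passed it and 6 were called higher, against 5.77% of all tested genes. These 9 form 9 pairs with a HOXC gene, and each pair's log2 ratio was compared between the groups with a two-sided exact permutation test, whose smallest possible p is 0.1, so none can fall below 0.05. The ratio was separated between the groups in 5 pairs, lower in the clones in 3 and higher in 2.

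*HOXC5* rose, while *HOXA5* had a log2 fold change of -0.28 and was not called. Their log2 ratio of normalized counts was 1.41 higher in the clones than in Control cells (exact p = 0.1). In RPKM, *HOXC5* made up 28.0% of the pair in Control cells and 51.3% in the clones. Against *HOXB5*, which also rose, the ratio was 0.20 higher (exact p = 0.1). *HOXC9* made up 37.0% of the RPKM of its pair with *HOXB9* in Control cells and 19.8% in the clones. The difference of their log2 ratio of normalized counts was -1.26 (exact p = 0.1).

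For *HOXC6* against *HOXB6* the difference was -0.79 (exact p = 0.1). *HOXC13* and *HOXA13* moved apart by -1.35 on the log2 scale (exact p = 0.1). *HOXA13*, the only HOXA gene called, went from 185.2 to 336.1 normalized counts, a log2 fold change of 0.86 (limma adjusted p = 0.0124). *HOXC13* made up 45.8% of the RPKM of that pair in Control cells and 25.7% in the clones.

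The other 4 pairs overlapped between the groups. The differences were -0.66 for *HOXC8* against *HOXB8* (exact p = 0.3), 0.49 for *HOXC6* against *HOXA6* (exact p = 0.2), 0.90 for *HOXC4* against *HOXA4* (exact p = 0.2) and 0.15 for *HOXC4* against *HOXB4* (exact p = 0.9). In clone 1 *HOXC8* and *HOXB8* had like counts, 343.1 and 315.4, while in clones 2 and 3 *HOXB8* had 350.8 and 353.5 against 194.4 and 172.7 for *HOXC8*. The clone that stood apart in *HOXC8* did not stand apart in *HOXB8*.

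**Figure D5:**
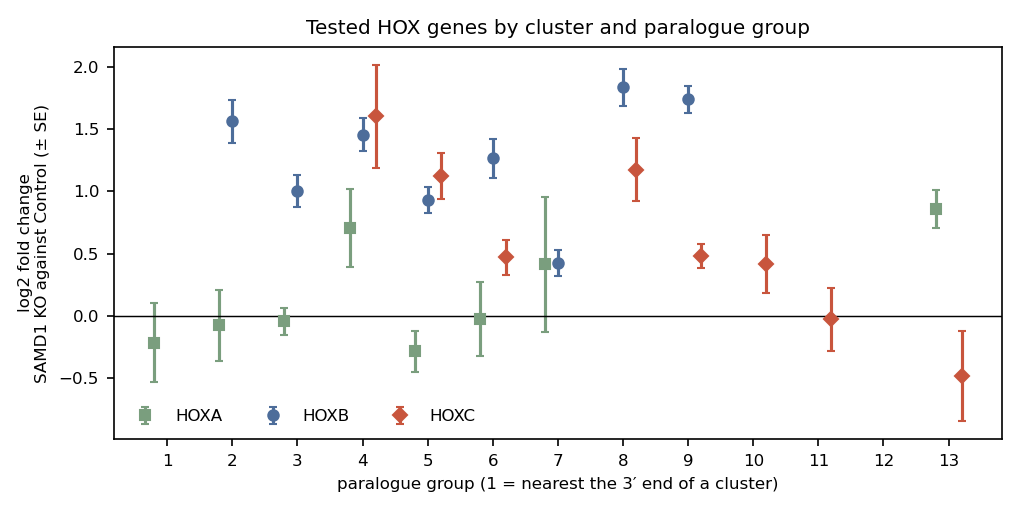
Log2 fold change between *SAMD1* KO and Control (± SE, n = 3 libraries a group) of the tested HOX genes by paralogue group (horizontal axis), with HOXA as green squares, HOXB as blue circles and HOXC as red diamonds. *HOXC9*, *HOXC8* and *HOXC6* lie below their HOXB paralogues, *HOXC5* lies above *HOXB5* and *HOXA5*, and *HOXC13* lies below *HOXA13*.

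The genes that act on HOX clusters were described from lists of known factors. Over all tested genes limma called 5.77% higher and 2.08% lower. At a limma adjusted p below 0.05 at any fold change, 8.32% were higher and 4.7% lower. With shares this low, 0 called in a short list is not read as a result. HOX proteins bind DNA together with TALE homeodomain cofactors of the PBX and MEIS families. Of 9 such genes 8 passed the filter, limma, edgeR and DESeq2 each called 0, and 1 was higher and 1 lower at an unadjusted p below 0.05. *MEIS2* had a log2 fold change of 0.28 (limma adjusted p = 0.0414) and *PBX3* -0.15 (limma adjusted p = 0.186), and the median was 0.0078.

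Polycomb proteins place and read the repressive H3K27me3 mark over silent HOX genes. Of 23 genes of this list 22 passed the filter, all 3 tools called 0, and 3 were higher and 5 lower at an unadjusted p below 0.05. The smallest p-values were those of the PRC2 core gene *EED* (log2 fold change -0.27) and the PRC2 accessory genes *AEBP2* (-0.25) and *PHF1* (-0.25), each with a limma adjusted p below the 0.05 limit. At that limit 4.7% of all tested genes were lower. Trithorax and related activators, which keep HOX genes active, had 17 of 17 tested and 0 called by any of the tools, with 2 higher and 2 lower at an unadjusted p below 0.05. *KDM6A*, an H3K27 demethylase gene, had a log2 fold change of 0.26 (limma adjusted p = 0.0490), *MLLT3* 0.29 and *AFF1* -0.18. Of 7 boundary genes (CTCF, cohesin and MAZ among them) 7 were tested, 0 were called by limma, edgeR or DESeq2 and 0 had an unadjusted p below 0.05, with *MAZ* at 0.14, *SMC1A* at 0.075 and *SMC3* at -0.072.

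Retinoic acid and CDX factors switch on HOX genes in the embryo, anterior genes first. Of 17 genes on this list 11 passed the filter, and limma called 4 higher and 1 lower. EdgeR and DESeq2 each gave the same counts. Over all tested genes limma called 5.77% higher and 2.08% lower. The retinoic acid receptor gene *RARG* had 1481, 1635 and 1477 normalized counts in Control libraries and 2464, 2538 and 2371 in the clones, with all clones higher (log2 fold change 0.68, limma adjusted p = 0.00132). *RARG* lies on the same chromosome arm as the cluster, at 53210567-53232980. *CYP26B1*, which encodes an enzyme that breaks down retinoic acid, had 868.2, 919.7 and 849.9 in Control libraries and 1304, 1586 and 1194 in the clones, again with no overlap (log2 fold change 0.62, limma adjusted p = 0.0126). *CRABP1*, which encodes a cytoplasmic retinoic acid binding protein, fell, from 10, 19 and 22 reads to 3, 3 and 2 (limma adjusted p = 0.0105). Its mean of 10.4 normalized counts passed the filter only through the Control libraries, which averaged 18.4 against 2.45 in the clones. The clones were at or under the floor of 3 reads. Its p-value is therefore not counted as support for a fall. The other two called genes, the receptor gene *RARB* and the retinoic acid synthesis gene *ALDH1A3*, were higher and are named here after their values were seen.

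Other genes followed the called HOXC genes across the 6 libraries. Likeness was measured as the root mean square difference of log2(normalized count + 1), centred on the Control mean, among 11453 genes with a mean of at least 50, and lower values are closer. It is a description over 6 libraries that share the difference between the groups. Nearest to *HOXC8* were the G protein subunit gene *GNAO1* (0.148), the potassium channel gene *KCNJ12* (0.153) and the natriuretic peptide receptor gene *NPR1* (0.165). Each of these was highest in clone 1, as *HOXC8* was, which follows from their being picked for likeness to it. *GNAO1* had 448.9, 304.1 and 250.1 normalized counts in clones 1, 2 and 3. The nearest HOX gene to *HOXC8* in this pool was *HOXA13*, at rank 154. Genes with a mean under 50, among them *HOXC4*, *HOXC5*, *HOXC10* and *HOXC11*, were not in the pool and could not be ranked.

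Nearest to *HOXC5* were *C2orf72* (0.0606), the WNT pathway transcription factor gene *LEF1* (0.0640) and *ADAM23* (0.0901). Its nearest HOX gene in the pool was *HOXB5*, its direct paralogue, at rank 40 (0.175). Nearest to *HOXC4* were the homeobox gene *SIX2* (0.244), *ACOT4* (0.390) and *HOXB8* (0.403). The larger distances of *HOXC4* go with its low read counts.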

How the data were processed

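RNA-seq was done in 3 Control and 3 *SAMD1* KO libraries, and groups were taken from the sample labels. The members and gene lists were chosen with earlier results of these data known. The authors aligned the reads with STAR to hg38 and GenCode 43, counted them on genes and divided each library by a DESeq2 size factor. featureCounts is named in the submitters' processing notes, and its strand and overlap settings are not given in the sources used here. The deposited signal is this normalized count. Within a library every value is an integer times 1 constant, and division by it gave whole reads (100% of values in each library within 0.01 of a step, with size factors of 0.873 to 1.16). In *SAMD1* KO replicate 1 the step, 0.989, is so close to 1 that a separate check of the recovery could not be passed for that library. A second deposited table holds the authors' comparison (mean, log2 fold change, standard error, statistic, p-value and adjusted p-value) and was not used.

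The lmFit and eBayes functions of limma 3.58.1 (R 4.3.3), with a trend in the variance, were fitted to log2(normalized count + 1) for genes with a mean of at least 10, over all 6 libraries, and tested on simulated data. Calls used the fold and p limits of the study. All tests are two-sided. Intervals and floors cover counting error only. Replicates were compared by chi-square over genes, with 2.66 to 5.22 per degree of freedom between Control and 50.4 to 58.1 between KO libraries, so no library was a duplicate.

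Gene positions came from GENCODE 44 on GRCh38 (98.5% of tested genes matched), and promoter and microRNA sequences from RefSeq tables (GRCh38.p14). Named genes are the 9 members, *SAMD1*, the 5 nearest tested genes on each side, the called members of each list or else the 3 with the smallest p, and the 3 genes nearest in pattern to each called member. Some genes that this rule names are not reported here. Alternatives tried were other pseudocounts (0.1 and 10), other filters (none, or a mean of at least 50), 75th percentile scaling, a replicate block, each library left out, edgeR 4.0.16, DESeq2 1.42.0 on the recovered reads, removal of the regional shift, and an adjusted p below 0.05 in the call. Python 3.11.15 was used for the other steps.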

Additional observations from a re-analysis of the deposited data

How the results depend on the processing

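Limma called 3 HOXC genes higher and 0 lower, and the same numbers were found with either pseudocount, no filter, 75th percentile scaling, edgeR, DESeq2, removal of the regional shift and an adjusted p in the call. With a mean of at least 50, 1 was called higher (*HOXC8*), because *HOXC4* and *HOXC5* were then not tested. With 1 library left out, 2 to 4 were called higher and 0 to 1 lower. *HOXC4* lost its call without Control replicate 1 or any of the clones. *HOXC9* gained it without Control replicate 2 or clone 3, *HOXC6* without clone 2, and *HOXC13* was called lower without clone 1. The log2 fold change of *HOXC11* ran from -0.14 to 0.16 over these fits, with 0.16 without Control replicate 2 and 0.099 without clone 2. In limma, the adjusted p was below 0.05 in 4 of the 6 fits for *HOXC5*, in 3 for *HOXC8* and *HOXC9*, and in 0 for *HOXC4*. Over all tested genes, 568 to 862 were called higher and 180 to 370 lower with 1 library left out, and 629 to 830 and 222 to 319 under the other alternatives, beside 737 and 266.

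Replicate numbers are shared by the groups, and the deviations of same-numbered libraries correlated at 0.039, 0.13 and 0.032 across genes. Not all of these were above 0.1, but this cannot settle whether the samples are paired. With the replicate block 3 HOXC genes were called higher and 0 lower, and over all genes 725 and 259. The limma adjusted p was then 0.0534 for *HOXC4*, 0.0555 for *HOXC9*, 0.0436 for *HOXC8* and 0.0342 for *HOXC5*. As a hint from the data and not the design, 5 of the 6 libraries correlated best with the library of the same number in the other group.

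Read depth limits *HOXC4*, *HOXC5*, *HOXC10* and *HOXC11*, with 5 to 70 reads a library. Among clones, the SD of *HOXC13*, *HOXC8* and *HOXC6* was 4.17, 6.24 and 3.93 times that expected from counting reads, while that of *HOXC9* was 0.70 times. Limma assumes the same spread in both groups, while the clones spread more than the Control replicates.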
